A study of Mus musculus with 4 samples.

Results

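The genes described here are 5 NF-kB subunits (Rela, Rel, Relb, Nfkb1 and Nfkb2), 4 inhibitors (Nfkbia, Nfkbib, Nfkbiz and Tnfaip3) and the activating kinase Ikbkb. Their m6A peaks were taken as the distinct entries of the peak list that the authors had assigned to the Ensembl gene of each symbol. This gave 17 of the 20727 distinct peaks, in 9 of the 10 genes. Rel had no peak.

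The data come from methylated RNA immunoprecipitation sequencing (MeRIP-seq), in which an antibody to N6-methyladenosine (m6A) pulls down RNA fragments that are sequenced beside input fragments. There were 4 libraries of splenic NK cells from wild-type C57BL/6 mice, namely 2 m6A immunoprecipitates (Synaptic Systems antibody) and 2 inputs made without antibody. Per the study's methods, the NK cells had first been expanded in the animals by injection of a pLIVE-IL-15 plasmid and were then sorted by flow cytometry, so that all libraries come from IL-15-expanded cells. The list gives 1 fold enrichment (immunoprecipitate over input) and 1 log10 peak-calling p per peak for all libraries together, so no error between replicates could be given, the depth of the libraries is unknown, and no test between samples was possible.

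NF-kB is a family of dimeric transcription factors that share the Rel DNA-binding domain. In resting cells the dimers are held in the cytoplasm by IkB proteins, and receptors that activate the IKK complex cause IkB to be phosphorylated and degraded, which frees the dimers. Several inhibitors, Nfkbia and Tnfaip3 among them, are themselves NF-kB target genes and close a negative feedback loop, and in NK cells the pathway acts downstream of cytokine and activating receptors. m6A is written mainly within the motif DRACH (D stands for A, G or T, R for A or G, and H for A, C or T, with the central A methylated), and is known to lie mostly in long exons, near stop codons and in 3' UTRs.

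The following windows show the DRACH site (in capitals) nearest to the centre of a peak, with sites of the GGAC kind preferred, read 5' to 3' on the strand of the gene in GRCm38. The first 6 are GGAC sites in coding sequence and in 3' UTRs, the seventh comes from the gene with the lowest enrichments, and the last 2 are DRACH sites from peaks that held no GGAC.
Rela, end of the coding sequence, chr19:5647368-5647396 (+ strand): cattgcggacatGGACTtctctgctcttt
Rela, 3' UTR, chr19:5647699-5647727 (+ strand): tctcctagagagGGACAgactggagccat
Relb, 3' UTR, chr7:19606437-19606465 (- strand): tcatcctgaatcGGACAtctgcagcgctg
Nfkb2, coding sequence, chr19:46309201-46309229 (+ strand): ccgagcgttgctGGACTacggcgtcaccg
Nfkbia, coding sequence, chr12:55492409-55492437 (- strand): cgacagcggcctGGACTccatgaaggacg
Nfkbia, 3' UTR, chr12:55489620-55489648 (- strand): aacctaatgaaaGGACCacgttttattta
Tnfaip3, coding sequence, chr10:19005002-19005030 (- strand): ctcccaggcgtgGGACTtggctcctcaaa
Nfkb1, 3' UTR, chr3:135584923-135584951 (- strand): aagattaaggaaAAACAtatttttaaatg
Nfkbiz, 3' UTR, chr16:55811493-55811521 (- strand): attgatcatgttTAACTcagcgtatttta
The antibody does not resolve single bases, so these are candidate bases within a peak and not measured sites. In the Nfkbia coding window the site lies in the GAC codon 35 of 314, between the AGC codon 32 and the TCC codon 36. These are the codons of the paired serines whose phosphorylation by IKK marks the protein for degradation. In the first Rela window the site lies in codon 539 of 549, in the stretch that encodes the C-terminal transactivation domain. In the Nfkbia 3' UTR window the site stood 288 nt past the stop codon and the window ended with an ATTTA pentamer, the core of AU-rich elements that govern mRNA decay.

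Most of these genes had a peak, and the median fold of their peaks was below that of the list. Among 3' UTR peaks alone the member median was not lower, as given below. Of the 10 genes, 9 had a peak, where 46.3% of the 21951 annotated protein-coding genes had one. That share counts every annotated gene, whether or not it is expressed in these cells. Of the wider NF-kB pathway genes described below 87.5% had a peak. The 17 fold enrichments ran from 1.14 to 4.17 with a median of 1.73, against a median of 2.66 and an interquartile range of 1.73 to 9.48 over all distinct peaks. Over the peaks of protein-coding genes the median was 2.37. No member peak reached a fold enrichment of 5, the value the study used to select genes and here called strong. It was reached by 34.6% of all peaks and by 29.5% of the peaks of protein-coding genes. By gene, 0 of 9 had a strong peak, where 43.4% of the 10174 protein-coding genes with a peak had one. These shares count peaks at any p, weakly supported ones included. Only 3 of the 17 lay above the median fold of the list, and 8 lay below its lower quartile.

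The median log10 p was -8.58 against -4.10 over all peaks, and 15 of the 17 had a p under 0.001, where 61.5% of all peaks did. Both exceptions were peaks of Ikbkb. The member peaks were also longer, with a median exonic length of 322 nt against 203 nt. A fold enrichment is a ratio of reads and not the share of molecules that carry the mark, and at a given fold the p is lower where more reads cover a peak. No read count per gene was used here, so levels of the transcripts cannot be set beside these values.

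**Figure D1:**
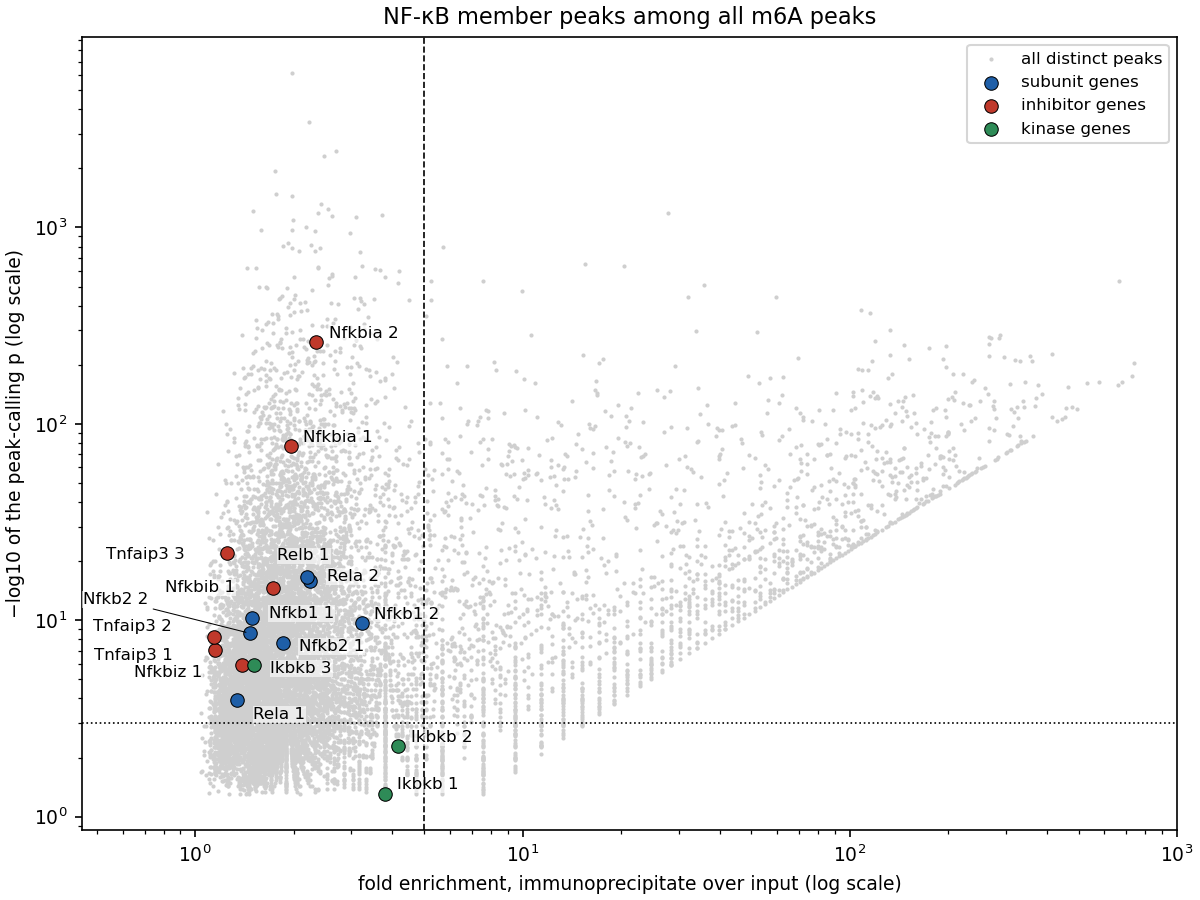
Fold enrichment of each peak (horizontal, log scale) against -log10 of its peak-calling p (vertical, log scale) for all 20727 distinct peaks (grey) and the 17 member peaks (coloured by role, labelled by gene and peak number). The dashed line marks a fold of 5 and the dotted line a p of 0.001. All member peaks lie left of the dashed line, and 2 peaks of Ikbkb lie below the dotted line.

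Among the subunits, 4 of 5 genes had peaks, 7 in all, with fold enrichments of 1.34 to 3.23 (median 1.85) and log10 p of -3.91 to -16.6. Rela encodes p65, the subunit with the transactivation domain of the classical dimer. Its peaks lay in the last exon (exon 11 of 11, 1331 nt). The peak over the stop codon (chr19:5647354-5647474) had a fold of 1.34 and a log10 p of -3.91, and its 121 nt covered codons 530 to 549 and 58 nt of the 3' UTR. The second peak (chr19:5647533-5648130) had a fold of 2.25 and a log10 p of -15.8, and its 598 nt ran to the end of the transcript. A gap of 58 nt parted them, so the Rela peaks together took in nearly the whole 3' UTR of 714 nt.

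Relb, the partner of p52 in the noncanonical pathway, had 1 peak (chr7:19606217-19606785) with a fold of 2.19 and a log10 p of -16.6, the lowest p of the subunits. It covered 233 nt of coding sequence (codons 482 to 558) including the stop codon, and all 336 nt of the 3' UTR. It held 5 DRACH sites and 4 GGAC sites over 569 nt.

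Rel, which encodes c-Rel, had no peak, and no peak assigned to another gene overlapped its exons. Its transcript was the longest of the 10, at 7466 nt with a 3' UTR of 5418 nt. It held 159 DRACH sites, or 21.3 per kb, close to the median of 20.3 per kb over protein-coding transcripts. GGAC was sparser in it, with 17 sites or 2.28 per kb against a median of 3.94 per kb. The absence from the list says only that no peak was reported for Rel, since the depth over this transcript is unknown.

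Nfkb1 encodes p105, which is processed to p50. Both of its peaks lay in the last exon (exon 25 of 25, 861 nt), and as in Rela they were 58 nt apart. The first (chr3:135584864-135585373) had a fold of 1.49 and a log10 p of -10.3, and ran from the last codons 491 nt into the 3' UTR. The second (chr3:135584655-135584805) had a fold of 3.23 and a log10 p of -9.72 over the final 151 nt of the transcript. This was the highest fold of any member peak with a p under 0.001, in a stretch with a GC content of 20.5% that held 1 DRACH site, 0 GGAC and 2 ATTTA pentamers. Together the Nfkb1 peaks held 5 of the 85 DRACH sites of the transcript (5.88%) and 0 of its 20 GGAC sites, while covering 16.1% of its length.

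Nfkb2 encodes p100, whose IkB-like C-terminal part is removed to give p52. Its peaks differed from those of the other subunits in lying mostly in coding sequence over several exons. The upstream peak (chr19:46308650-46309958) had a fold of 1.85 and a log10 p of -7.67, and its 688 exonic nt covered codons 338 to 567 with 10 DRACH and 5 GGAC sites. The downstream peak (chr19:46310557-46311970) had a fold of 1.47 and a log10 p of -8.58, and its 828 exonic nt covered codons 677 to 878 and the stop codon, with 16 DRACH sites. Both peaks spanned introns, so the exonic lengths are smaller than the spans of 1309 and 1414 nt. On the 3 other coding isoforms, which have a longer coding sequence of 2700 nt, the centre of the second peak stood at -298 nt from the stop codon in place of -195 nt.

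**Figure D2:**
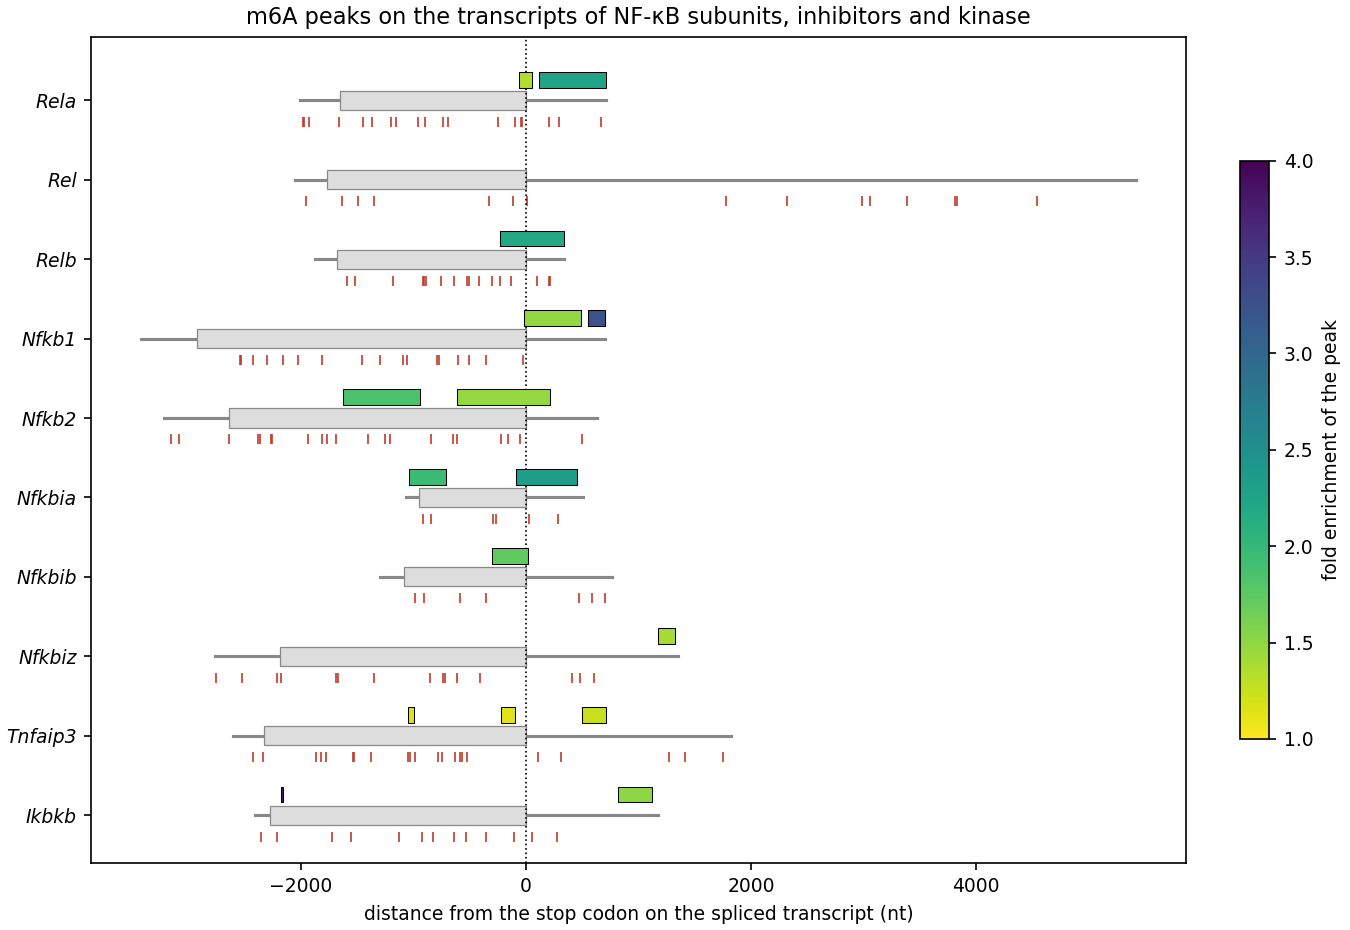
Spliced transcripts of the 10 genes aligned at the stop codon (horizontal axis in nt, negative upstream), with the untranslated regions as lines and the coding sequence as grey boxes. Boxes above each transcript are m6A peaks coloured by fold enrichment, and red ticks below are DRACH sites of the GGAC kind. Peaks gather at and after the stop codon in Rela, Relb and Nfkb1, both ends of Nfkbia carry a peak, and Rel has none. The longest coding transcript is drawn, except for Ikbkb, where the transcript with the longest coding sequence is drawn and its second peak, which touched no coding isoform, is not shown.

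All 4 inhibitor genes had peaks, 7 in all, with fold enrichments of 1.14 to 2.34 (median 1.39) and log10 p of -5.94 to -261. Nfkbia encodes IkB-alpha, the main inhibitor of p65-containing dimers. Its 3' peak (chr12:55489470-55490442) had a fold of 2.34 and a log10 p of -261, which ranked 132 among 20727 peaks by significance. Its 5' peak (chr12:55491771-55492617) had a fold of 1.96 and a log10 p of -77, at rank 746. These were the most significant member peaks, while the fold of each lay below the median of the list.

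The Nfkbia peaks also covered more of their transcript than those of any other member, 54.7% of its 1578 nt and 14 of 28 DRACH sites. The 5' peak took in 91 nt of the 5' UTR and codons 1 to 79, with a GC content of 69.3%, 4 DRACH sites and 5 GGAC. The authors' label placed it in the 5' UTR, and the centre of its exonic part lay in coding sequence. The 3' peak took in the last 28 codons (287 to 314), the stop codon and 452 of the 512 nt of 3' UTR, with 10 DRACH sites and a GC content of 41.0%.

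Nfkbib encodes IkB-beta, a more slowly degraded relative. Its peak (chr7:28758993-28760025) had a fold of 1.73 and a log10 p of -14.6, and its 322 exonic nt covered codons 260 to 359, the stop codon and 21 nt of the 3' UTR. It held 9 of the 31 DRACH sites of the transcript (29.0%) in 15.6% of its length. Of 3 coding isoforms, 2 shared exons with the peak.

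Nfkbiz encodes IkB-zeta, a nuclear and inducible member of the family that acts as a cofactor at secondary response genes. Its peak (chr16:55811405-55811554) had a fold of 1.39 and a log10 p of -5.94, with its centre 1250 nt past the stop codon and its end 30 nt before the end of the transcript. It lay in the 3' UTR of all 4 coding isoforms and held 1 of the 75 DRACH sites of the transcript and 0 GGAC.

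Tnfaip3 encodes A20, a ubiquitin-editing enzyme that shuts off signalling upstream of IKK. Its 3 peaks had the lowest fold enrichments of the members. The first (chr10:19004978-19005038) had a fold of 1.15 and a log10 p of -7.08 over 61 nt of the 875-nt exon 7, with 4 DRACH sites. The second (chr10:19002829-19002949) had a fold of 1.14 and a log10 p of -8.23 over codons 704 to 744. The third (chr10:19002019-19002229) was centred in the 3' UTR at 607 nt after the stop codon. It had a fold of 1.25 and a log10 p of -22.0. Only 0.622% of all peaks had a fold as low as the second or lower, yet each of the 3 passed a p of 0.001. Each overlapped exons of 2 of the 4 coding isoforms.

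Ikbkb encodes IKK-beta, the kinase that phosphorylates IkB in the classical pathway. Its 3 peaks had fold enrichments of 3.79, 4.17 and 1.51 with log10 p of -1.31, -2.29 and -5.95. The peaks with the higher folds were thus the least significant of all member peaks. The first (chr8:22705664-22706084) shared only 3 nt with coding isoforms, and the same pair of fold and p occurred in 199 peaks of the list. The second (chr8:22668228-22668378) touched 0 of 4 coding isoforms and 1 of 14 isoforms in all.

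The third Ikbkb peak (chr8:22659272-22659572) missed the longest coding transcript and lay in the last exon of the transcript with the longest coding sequence. There its 301 nt were centred 969 nt past the stop codon and ended 60 nt before the transcript end. It was the only Ikbkb peak with a p under 0.001, and by it alone Ikbkb would have a fold of 1.51, within the range of the subunits.

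Of the 17 peaks, 15 could be placed on the longest coding transcript of their gene. The centre of the exonic part lay in the 3' UTR in 7 (46.7%, 95% Wilson interval 24.8% to 69.9%, which covers counting error only) and in coding sequence in 8 (53.3%). The interval takes the peaks as independent, though some come from the same gene, so it may be too narrow. No centre lay in a 5' UTR. Over all 15721 placed peaks the shares were 56.5%, 33.6% and 9.94%. By the authors' label the order was reversed, with 64.7% of member peaks and 53.3% of all peaks in the 3' UTR. The median fold of the 7 member peaks in 3' UTRs was 2.19, beside 2.02 (interquartile range 1.61 to 3.41) for all 3' UTR peaks. In coding sequence the medians were 1.6 for members and 2.53 for all. The 8 member peaks in coding sequence include the first Ikbkb peak (fold 3.79, log10 p -1.31). Only 3 nt of its 421-nt span lay in exons of the transcript used. At a p under 0.001, which leaves this peak out, the member share in the 3' UTR was 50%. Of the 7 member peaks in 3' UTRs, 4 lay within that interquartile range.

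The exonic part contained the stop codon in 6 of the 15 member peaks, in Rela, Relb, Nfkb1, Nfkb2, Nfkbia and Nfkbib, beside 20.4% of all placed peaks. The centre lay within 200 nt of it in 6 of 15, beside 22.3%. The member peaks were also longer, as given above, and the part of length in these counts was not tested. The centre lay in the last exon in 9 of 15, beside 66.7% of all.

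The member peaks held 87 DRACH sites in 5196 exonic nt, or 16.7 per kb, beside 20.2 per kb over all placed peaks. GGAC, which is a DRACH site when followed by A, C or T, was found 29 times, or 5.58 per kb beside 4.03 per kb. A DRACH site was present in 14 of 15 peaks (all peaks, 89.97%) and GGAC in 9 of 15 (54.5%), with longer peaks among the members. The 3-nt coding part of the first Ikbkb peak was the exception without a DRACH site. ATTTA was found 6 times, in 5 of 15 peaks, or 1.15 per kb beside 1.24 per kb.

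The share of motif sites under peaks was close to the share of length. In the 9 genes with a peak, peaks covered 17.9% of the transcript length, 14.9% of the DRACH sites (87 of 583) and 17.8% of GGAC (29 of 163). Ikbkb added 3977 nt, 100 DRACH sites and 19 GGAC to these totals, but only 3 nt and 0 sites in peaks. Its only peak with a p under 0.001 missed the transcript used, which lowers all these member shares. Over the 9614 genes with a placed peak the shares were 20.5%, 20.4% and 20.2%. Genes differed in this respect. The share of DRACH sites exceeded the share of length in Nfkbib (29.0% against 15.6%) and Tnfaip3 (11.8% against 8.89%). It was below the share of length in Rela, Relb, Nfkb1, Nfkb2, Nfkbia and Nfkbiz. The values were 5.88% against 16.1% in Nfkb1, 50% against 54.7% in Nfkbia and 24.2% against 26.5% in Rela.

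**Figure D3:**
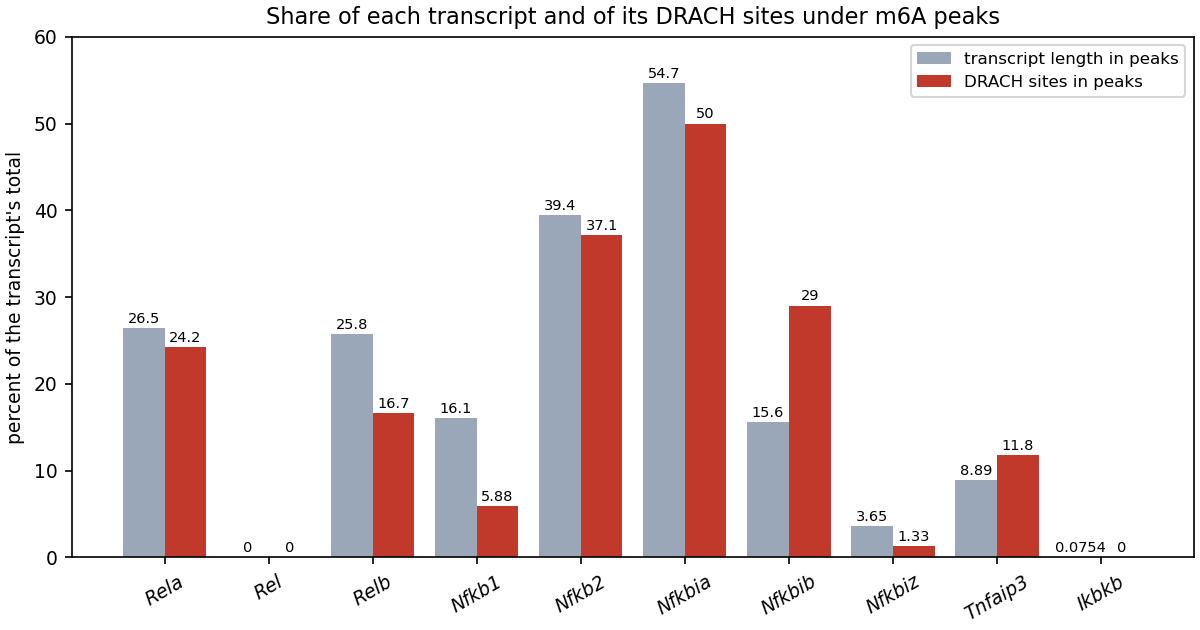
Share of transcript length (grey bars) and of DRACH sites (red bars) that lay within m6A peaks, in percent of each longest coding transcript. Nfkbia has the highest shares (54.7% and 50%), Rel has none, and Nfkb1 shows 16.1% of length with 5.88% of DRACH sites. For Ikbkb the coding transcript used holds only 3 nt of its peaks.

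To place these genes within their pathway, 88 further NF-kB pathway genes in 6 roles were examined in the same way. A peak was present in 77 of them (87.5%), beside 46.3% of annotated protein-coding genes. A strong peak was present in 18, which is 23.4% of those with a peak, beside 43.4% of protein-coding genes with a peak. When only peaks with a p under 0.001 on a coding isoform were counted, 64 genes had a peak and 5 had a strong one, Tab2, Ep300, Sod2 and Ier3 among them. In the same count over protein-coding genes, 2288 of 7200 (31.8%) had a strong peak. The median of the highest fold per gene on that basis was 1.85 in the members, 1.90 in the wider pathway and 2.46 over protein-coding genes.

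The partners of IKK-beta gave few usable peaks. Chuk, which encodes IKK-alpha, had 1 peak with a fold of 12.3 and a log10 p of -8.31 that touched no coding isoform. Ikbkg, which encodes the regulatory subunit NEMO, had 2 peaks, neither on a coding isoform. Tab2, an adaptor of the kinase TAK1 upstream of IKK, had a peak in the 5' UTR with a fold of 18.0 and a log10 p of -6.82, and Ikbke, an IKK-related kinase, a 3' UTR peak with a fold of 1.96 and a log10 p of -10.9. Map3k7, which encodes TAK1 itself, and Tab1 had no peak.

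The other IkB-family genes resembled the member inhibitors in the size of their folds. Nfkbid had a fold of 1.74 and a log10 p of -20.4, Bcl3 a fold of 2.11 and a log10 p of -5.63, and Nfkbie a fold of 1.24 and a log10 p of -3.30, each in the 3' UTR. Among the other inhibitors and brakes the highest folds of peaks with a p under 0.001 on a coding isoform were 3.06 in Otud7b, a deubiquitinase, and 2.84 in Zc3h12a, the endonuclease Regnase-1, both in the 3' UTR. In all, 13 of 15 genes of this role had a peak, and Tnip2 and Tnip3 had none.

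For the other roles, genes with a peak are counted at any p, and the genes named are those with the highest folds among peaks with a p under 0.001 on a coding isoform. Of annotated protein-coding genes 46.3% had a peak at any p. Some peaks with a weaker p had higher folds, such as 5.69 in the receptor gene Il1r1 (log10 p -1.63), an example chosen after its values were seen. Peaks were present in 12 of 16 receptor genes, and the named genes are Ltbr, the lymphotoxin beta receptor (fold 3, log10 p -20.1), and Tlr7 (fold 2.43, log10 p -3.94). They were present in 19 of 21 adaptor and ubiquitin ligase genes, where those named are Traf1 (fold 3.65, log10 p -4.10) and Irak2 (fold 3.02, log10 p -10.2). All 18 target genes had a peak, and those named are Sod2, the mitochondrial superoxide dismutase (fold 6.53, log10 p -27.3), and the early response gene Ier3 (fold 5.92, log10 p -38.1). Of the 7 coactivators 6 had a peak, among them the acetyltransferase Ep300 (fold 9.48, log10 p -3.51).

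**Figure D4:**
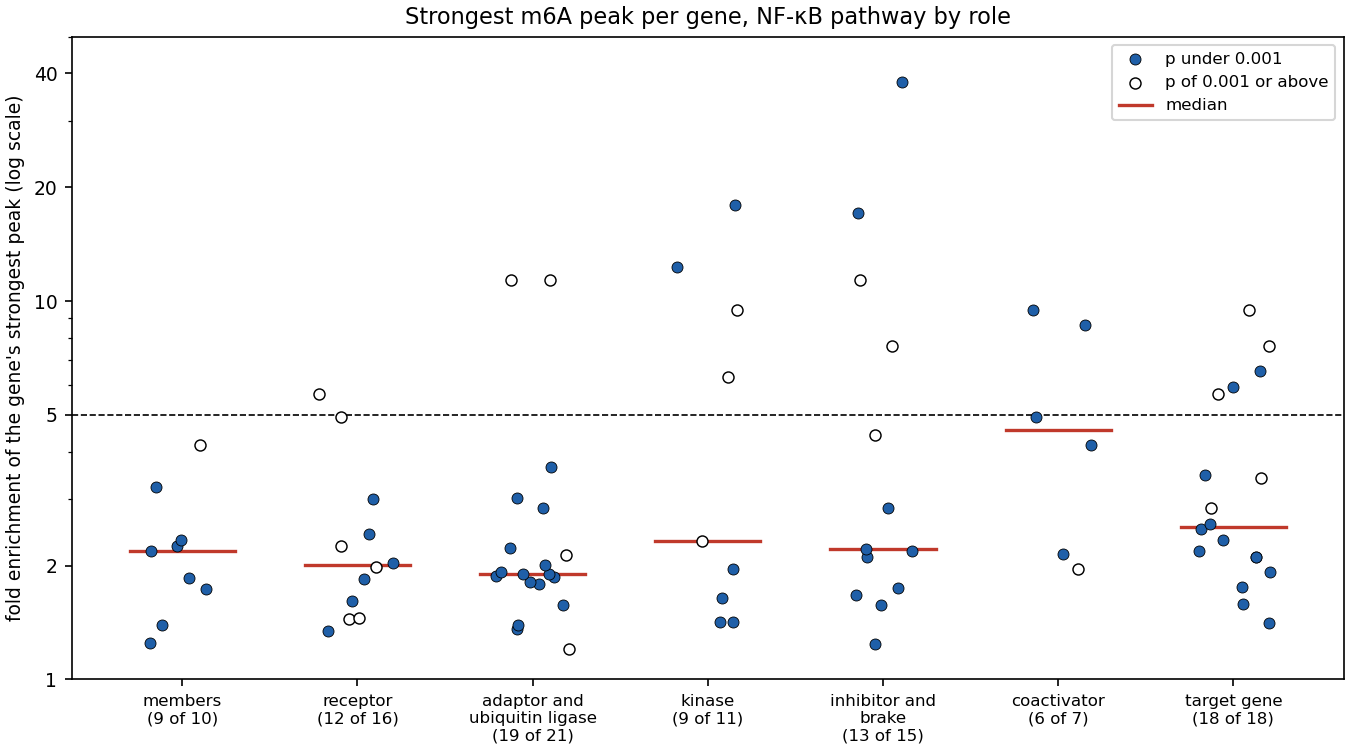
Fold enrichment of the strongest peak of each gene (log scale) in the members and in 6 roles of the wider NF-kB pathway, with 1 point per gene with a peak and the number of genes with a peak under each role. Filled points have a p under 0.001, open points do not, red bars are medians and the dashed line is a fold of 5. All 9 member genes lie below the line, and of the 18 wider pathway genes above it 8 are filled points. No share over protein-coding genes is given for filled points.

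NF-kB genes are used by most blood cells, so markers of the cell types that a spleen sort could hold were also looked up. All 10 NK cell markers (among them Ncr1, Klrb1c and Eomes) had a peak, with the best log10 p per gene between -6.39 and -624. Peaks were also listed for 5 of 5 myeloid markers (best log10 p -35.3 to -322), 3 of 5 B cell markers, 2 of 5 T cell markers and 2 of 3 erythroid markers, the globins reaching -2440. Cd4, Cd8a and Cd8b1 of T cells and Ms4a1 of B cells were among the markers with none. Of annotated protein-coding genes 46.3% had a peak. The part of other cells in the member peaks was not tested, and in bulk RNA fewer cells of a type and less RNA per cell cannot be told apart.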

How the data were processed

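MeRIP-seq was done on 2 m6A immunoprecipitates and 2 inputs of splenic NK cell poly(A) RNA cut to short fragments. Per the study's methods reads were quality-trimmed and mapped by the authors with HISAT2, and exomePeak and ChIPseeker served for peak calling and annotation. The submitters' processing notes give HISAT2 1.0, ChIPseeker 1.0 and GRCm38. The deposited list holds for each peak a fold enrichment, a ratio of immunoprecipitate to input reads, and a score, the log10 of the unadjusted peak-calling p. The list has 0 columns with a value per sample. How replicates were combined, the strand of the libraries and their depth are not given in the sources used here.

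Of 20751 rows, 24 repeats were dropped. Each peak was positioned by the middle of its exonic bases in its gene's longest coding transcript (GENCODE vM21, GRCm38). This worked for 15721 peaks (75.8%). Motifs were searched on the strand of the gene, and printed windows match the RefSeq GRCm38 genome. Python 3.11.15, pandas 2.3.3 and scipy 1.17.1 were used, and placement and motif search were tested on simulated data. No test was run, because peaks and genes are not replicates.

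Members, pathway lists and markers were chosen with earlier results of these data known. Named pathway genes are Chuk, Ikbkg, Nfkbie, Nfkbid, Bcl3 and, per role, the 2 genes with the highest fold among peaks with a p under 0.001 on a coding isoform. Genes without a peak and the markers are named besides, and some genes of these lists are not reported here. Alternatives changed the thresholds, the assignment of peaks, the transcript, the position and the motif.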

Additional observations from a re-analysis of the deposited data

How the results depend on the processing

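Of 30 alternatives over 9 results, 22 stayed within the limits set for calling a value unchanged and 8 moved. At a fold of at least 2, 5 member genes and 6 member peaks remained on the list in place of 9 and 17, because fewer peaks qualify. Of all peaks 63.9% had such a fold. With strong defined as a fold of at least 3 the member genes with a strong peak went from 0 to 2, Nfkb1 and Ikbkb. Of protein-coding genes with a peak 56.4% were strong in that way. Within 100 nt of the stop codon there were 2 centres in place of 6, beside 12.6% of all placed peaks. At a p under 1e-10 there were 7 member peaks in place of 15, beside 25.7% of all peaks. Counting GGAC in place of DRACH gave 5.58 sites per kb in place of 16.7. Wider pathway genes with a strong peak went from 18 to 7 at a fold of at least 10 and to 8 at a p under 0.001. Of protein-coding genes with a peak 27.5% reached a fold of at least 10. For the count of 8 no share over protein-coding genes is given. With peaks also required to lie on a coding isoform, 5 of 64 wider pathway genes were strong, beside 31.8% of protein-coding genes. Each of these alternatives is by construction a stricter or looser threshold or a rarer motif. The share of member peaks in the 3' UTR was 46.7% as reported, 64.7% by the authors' label, 60% by the centre of the genomic span and 50% both on the transcript with the longest coding sequence and at a p under 0.001. Over all peaks it was 56.5% as reported and 53.3% by the authors' label. Whether members lay below or above all peaks thus depended on the method.

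No paired analysis was possible because each peak carries a single value for all 4 libraries, and for the same reason leaving out each replicate was not run. The depth is unknown, so a gene without a peak cannot be told apart from a gene with too few reads.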
